A study of Mus musculus with 24 samples.

Results

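The sacral dorsal root ganglia (DRG) of female (XX) and male (XY) mice were compared here over the genes of the autosomes, chromosomes 1 to 19. Of the 24 samples of the series, 12 were sacral, and they were taken by their labelled region and sex. The sacral samples came from 7 females and 5 males, 1 sample from each mouse, and all 12 were used. The mice were C57Bl6 animals of 6-8 weeks with no transgene, deletion or treatment. Sacral DRG were the ganglia of levels L6-S1, which hold the neurons of the pelvic organs among others of the lower body, and the nerve roots had been removed. Of the females, 4 were in batch 2 with all 5 males, and the other 3 were in batch 1, which held no males. Part of the series was prepared at a second facility. The authors had subtracted the batch difference from the deposited values, so the comparison was also made in batch 2 alone, 4 females against 5 males. The 12 lumbar DRG samples (L4-5, 7 female and 5 male) served for the spread of the model and for the contrast with the lumbar level. By their labels the 24 samples came from 13 mice, so most lumbar samples were from the mice of the sacral samples.

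A DRG holds the cell bodies of sensory neurons, the satellite glia around them, Schwann cells, vessels, and the connective sheath of the nerve. Peptidergic nociceptors are small sensory neurons that store neuropeptides such as substance P and calcitonin gene-related peptide (CGRP) and release them from both ends of the axon. Enkephalins act on opioid receptors and lower the release of transmitter from such neurons. Steroid hormones act through receptors that are encoded mainly on autosomes, and steroid reductases convert testosterone to dihydrotestosterone, a stronger androgen, and progesterone to precursors of neurosteroids. RNA was measured in whole ganglia, so fewer cells of a type and less RNA per cell cannot be told apart.

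Expression is given as log2 RPKM, where RPKM scales the reads of a gene by its length and the library size, and differences are given as females minus males on that scale. Of 12074 autosomal genes tested with limma, 5 differed in the fit of all samples (Benjamini-Hochberg adjusted p of 0.05 or less, 0.0414% of those tested). Srd5a2, Tac1 and Gm12338 were lower in females (0.0248% of those tested), and Slc4a11 and Hscb were higher (0.0166%). In batch 2 alone 4 genes differed (0.0331%), of which Srd5a2, Tac1 and 4632415K11Rik were lower in females (0.0248%) and Slc4a11 was higher (0.00828%). An unadjusted p under 0.05 was found for 1041 autosomal genes in the fit of all samples (8.62%; 503 higher and 538 lower in females). In batch 2 alone it was found for 955 (7.91%), of which 484 were higher (4.01%) and 471 lower (3.9%) in females. Of these genes, 759 were shared by both fits with the same sign, and the fits share the 9 sacral samples of batch 2. The median difference over all autosomal genes was 0.01, and 51.3% of them had a fitted difference above 0 (53.4% in batch 2 alone). The median standard error was 0.31, and the median absolute difference was 0.24.

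The Y genes Ddx3y, Kdm5d, Uty and Eif2s3y lay at −0.07 or higher in all sacral males and at −5.49 or lower in all sacral females, and Xist showed the opposite order, so the sex labels matched in all 12 samples. In batch 2 the effective library size was 37.8 to 42.0 M reads in sacral females and 35.9 to 41.5 M in males (exact permutation p = 0.460, two-sided). The batch 1 females had 27.6 to 32.3 M. Mitochondrial transcripts took 26.3% to 36.0% of the reads in batch 2 females and 31.5% to 42.4% in males (exact permutation p = 0.127; 4 against 5 cannot go below 0.00794). Every gene of the pan neuronal and satellite glia marker lists was tested, and the pan neuronal mean was 5.63 to 6.13 log2 RPKM in all 12 samples. The satellite glia mean was 3.74 to 3.96 in males, 3.66 to 3.76 in batch 2 females and 3.63 to 3.85 in batch 1 females. Of its 10 genes Fabp7 (−0.83 ± 0.22) and Apoe (−0.52 ± 0.18) were lower in females at an unadjusted p under 0.05, and the median was −0.05. At that p 4.46% of all autosomal genes were lower. In batch 2 alone 8 of the 10 had a difference below 0. The exact permutation p of the mean was 0.0238 in batch 2, and 0.0905 adjusted over 19 marker means, which does not pass.

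Srd5a2 (ENSMUSG00000038541; mm9 chromosome 17, 74367046 to 74397256, minus strand) encodes a steroid reductase best known from the prostate and other male reproductive tissue. The promoters of Srd5a2 and Tac1 are shown because these genes had the lowest adjusted p in the fit of all samples and were in the promoter table. They are from RefSeq on GRCm38.p6, on the strand of the gene, and run from 250 bases before to 50 bases after its start. They were searched on both strands for the cAMP response element TGACGTCA (in 1.79% of all 32851 promoters of the table) and the shorter TGACG (20.8%). They were also searched for the AP-1 element TGANTCA (7.81% of promoters) and for the promoter element TATAAA (13.6% of promoters). For steroid receptors the search covered AGAACA (19% of promoters), a part of the androgen response element, and the whole androgen and estrogen response elements (0.00913% and 0.07%). The sequence TGACG lies within TGACGTCA, AGAACA lies within the androgen response element, and capitals mark the matches found. The promoter table held 2 of the 5 genes looked up. In the window of Srd5a2 (chr17:74047811-74048110) none of these letters were found.
Srd5a2: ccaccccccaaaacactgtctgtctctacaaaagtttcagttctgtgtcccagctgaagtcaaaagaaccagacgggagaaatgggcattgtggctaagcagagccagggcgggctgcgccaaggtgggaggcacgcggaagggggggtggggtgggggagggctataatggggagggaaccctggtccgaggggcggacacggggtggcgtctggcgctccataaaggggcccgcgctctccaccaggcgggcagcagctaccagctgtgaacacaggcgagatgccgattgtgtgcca
Tac1: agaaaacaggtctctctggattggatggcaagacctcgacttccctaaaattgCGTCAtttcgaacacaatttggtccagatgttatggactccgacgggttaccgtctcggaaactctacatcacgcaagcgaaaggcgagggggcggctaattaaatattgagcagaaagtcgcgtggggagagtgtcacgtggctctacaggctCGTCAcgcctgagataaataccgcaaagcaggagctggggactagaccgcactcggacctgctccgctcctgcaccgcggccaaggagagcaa
In the window of Tac1 (chr6:7554811-7555110) TGACG was found on the opposite strand in 2 places, beginning 197 and 43 bases before the start, and no other of the motifs was found. A match is a description of the letters, and binding was not measured.

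The log2 RPKM of Srd5a2 in sacral males was 4.45, 4.14, 5.26, 4.72 and 4.48. In batch 2 females it was −3.45, −0.89 and 1.20, and the fourth sample had no reads and was set to the value of 0.5 reads, −6.08. The batch 1 females had −1.21, −1.62 and −0.31. Every female lay below every male, and the females spread far more widely than the males. The median corresponded to about 773 reads in males and 11.3 reads in batch 2 females, without regard to the batch difference subtracted from the values. The fitted difference, which includes a term for batch, was −7.01 ± 0.93 (SE; limma adjusted p = 5.12e-04). Its 95% interval was −8.93 to −5.08, and in batch 2 alone the difference was −6.91 ± 1.02 (adjusted p = 0.00379). The size depends on how cells without reads are handled: it was −5.65 with those cells left missing and −4.07 on the log2(RPKM + 1) scale, and the gene was called in both. Of the 7 tested genes within 500000 bases of Srd5a2, 1 had an unadjusted p under 0.05, and their differences ran from −0.55 to 0.44.

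Tac1 (ENSMUSG00000061762; mm9 chromosome 6, 7505071 to 7512973, plus strand) encodes the precursor of substance P and neurokinin A. Its log2 RPKM in sacral males was 8.77, 8.46, 8.58, 8.44 and 8.38. It was 8.06, 7.44, 7.5 and 7.5 in batch 2 females and 7.78, 7.76 and 7.60 in batch 1 females. The groups did not overlap, and the female nearest to the males was a batch 2 sample. The difference was −0.86 ± 0.14 (SE; limma adjusted p = 0.00212), which is 1.82-fold lower in females, with a 95% interval of −1.14 to −0.59. In batch 2 alone it was −0.90 ± 0.15 (adjusted p = 0.0141). That fit took its spread also from the lumbar samples, and with the 9 sacral samples alone the adjusted p was 0.0548 for Tac1 and 0.0538 for Srd5a2, so neither was called. The approximate read numbers behind these values were 14371 in males and 7479 in batch 2 females (medians), so counting error is small for this gene. In the fit of all samples Srd5a2 and Tac1 were called without each of the 12 sacral samples in turn. In batch 2 alone Srd5a2 was called without each of the 9, and Tac1 in 4 of these 9 fits: it was lost without male replicate 11 or 13 and without female replicate 21, 22 or 23. Neither was called with a perineurium marker mean as a covariate (adjusted p of 0.0574 and 0.0765), at differences of −6.46 and −0.88. Those markers are described with the cell types.

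**Figure D1:**
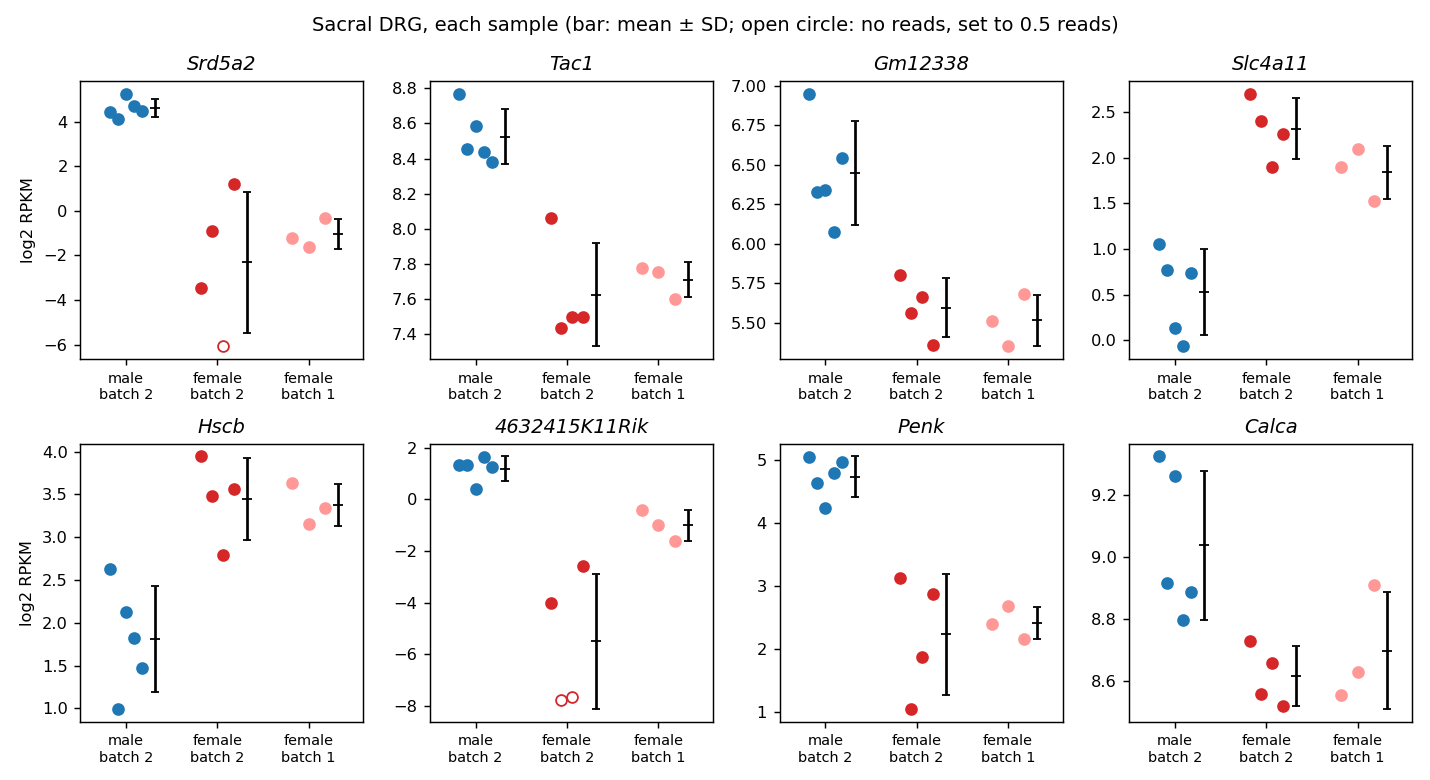
Log2 RPKM (vertical axis) of 8 genes in each sacral sample, with males, batch 2 females and batch 1 females side by side, and the mean and SD of each as bars. Open circles are samples without reads, set to 0.5 reads. The sexes are separate for all genes but Calca, where 1 batch 1 female lies among the males.

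The other called genes were Slc4a11, Hscb, Gm12338 and 4632415K11Rik, and the plot of sample values shows each of them. Slc4a11 (ENSMUSG00000074796; mm9 chromosome 2, 130509849 to 130523255, minus strand) encodes a membrane transporter of the bicarbonate transporter family. It was 1.05, 0.77, 0.13, −0.07 and 0.74 in males and 1.53 to 2.70 (median 2.09, n = 7) in females. All 7 females were above all 5 males, by 1.59 ± 0.31 (SE; limma adjusted p = 0.0454), or 3.0-fold. In batch 2 alone the difference was 1.79 ± 0.34 (adjusted p = 0.0491). With the perineurium marker mean as a covariate it was 1.12 (adjusted p = 0.510).

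Hscb (ENSMUSG00000043510; mm9 chromosome 5, 111258089 to 111268796, minus strand) encodes a mitochondrial co-chaperone of iron-sulphur cluster assembly. It was 2.63, 0.99, 2.13, 1.82 and 1.48 in males and 2.79 to 3.94 (median 3.48, n = 7) in females, with no overlap. The difference was 1.61 ± 0.32 (SE; limma adjusted p = 0.0472), and in batch 2 alone it was 1.64 ± 0.37 (adjusted p = 0.143). Without single samples Slc4a11 and Hscb were each called in 2 of 12 fits. Slc4a11 was called in 0 of 9 such fits of batch 2 alone. All genes tested, X and Y genes included, entered the adjustment. Over the autosomal genes alone the adjusted p was 0.0901 for both genes, 0.0502 for Gm12338, 9.88e-04 for Srd5a2 and 0.00709 for Tac1.

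Gm12338 (ENSMUSG00000081485; mm9 chromosome 11, 75413265 to 75413456, minus strand) is annotated as a pseudogene and lies within Pitpna, on the opposite strand. It was 6.95, 6.33, 6.34, 6.07 and 6.54 in males and 5.35 to 5.80 (median 5.56, n = 7) in females, again without overlap. The difference was −0.89 ± 0.16 (SE; limma adjusted p = 0.0197), and in batch 2 alone it was −0.85 ± 0.18 (adjusted p = 0.116). All of its 143 words of 50 bases also occur in transcripts of Cox7c, a subunit gene of cytochrome c oxidase. Of these words 73 also occur in Gm3386. Reads of these genes can be exchanged in the counting, so its values are uncertain. Cox7c itself differed by −0.41 ± 0.48 (unadjusted p = 0.394), and Pitpna by 0.10 ± 0.12.

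4632415K11Rik (ENSMUSG00000034105; mm9 chromosome 8, 122284487 to 122302316, minus strand) was called in batch 2 alone. It was 1.32, 1.32, 0.38, 1.64 and 1.27 in males. Of the batch 2 females, 2 had no reads and the others had −4.03 and −2.57, and the batch 1 females had −0.43, −1.01 and −1.61. The males lay above the females of both batches. The difference was −6.69 ± 1.16 in batch 2 alone (SE; limma adjusted p = 0.0166) and −5.45 ± 1.26 in all samples (adjusted p = 0.109). Without single samples of batch 2 it was called in 3 of 9 fits. The batch 2 call rests on samples with few or no reads: it was lost on the log2(RPKM + 1) scale (−1.65, adjusted p = 0.208) and with cells without reads left missing (−4.48, adjusted p = 0.315).

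Neuropeptides lay mostly lower in females. Of 26 autosomal neuropeptide genes 15 were tested, and the fitted difference was below 0 for 13 of them, with a median of −0.51 against 0.01 over all autosomal genes. In the fit of all samples 1 of the 15 was called, Tac1. An unadjusted p under 0.05 was found for 4 lower and 1 higher, against 4.46% and 4.17% of all autosomal genes. The median of the list ran from −0.62 to −0.38 over all alternatives of the fit. Penk (ENSMUSG00000045573; mm9 chromosome 4, 4060678 to 4065966, minus strand), the precursor of the enkephalins, was 5.05, 4.63, 4.24, 4.78 and 4.97 in sacral males. It was 3.12, 1.05, 1.88 and 2.88 in batch 2 females and 2.40, 2.68 and 2.17 in batch 1 females. No female reached the lowest male. The difference was −2.42 ± 0.50 (SE), 5.37-fold, with a limma adjusted p of 0.0633 that misses the threshold. Under 31 alternatives its adjusted p ran from 0.00133 to 0.261, and 6 of them called it. Penk overlaps A830012C17Rik on the opposite strand, and whether strand entered the counts is not given, so reads of both cannot be told apart.

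Both CGRP genes, Calca and Calcb, were lower in females at an unadjusted p under 0.05 and did not pass the adjustment. Calca was 9.32, 8.92, 9.26, 8.80 and 8.89 in males and 8.52 to 8.91 (median 8.63, n = 7) in females. In batch 2 the sexes did not overlap, and 1 batch 1 female lay within the male range. The difference was −0.39 ± 0.13 (SE; limma adjusted p = 0.387). Calcb was 5.36 to 5.83 in males and 4.35 to 5.30 in females, with a difference of −0.61 ± 0.18 (adjusted p = 0.304). Of all autosomal genes, 1.19% had females and males without overlap over the 12 samples (0.679% with females lower and 0.514% higher), and Tac1, Penk and Calcb were among them. Sst, which encodes somatostatin and marks a pruriceptor population, was the one neuropeptide that lay higher in females at an unadjusted p under 0.05, at 3.42 to 4.74 in females and 2.54 to 4.0 in males (0.97 ± 0.39, adjusted p = 0.453).

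The receptors of tachykinins and opioids were taken as a list of their own. Of 7 tachykinin and opioid receptor genes 4 were tested, none had an unadjusted p under 0.05, and their median was 0.45. Oprm1, the mu opioid receptor, was 3.24, 3.33, 3.63, 3.47 and 3.82 in males and 3.02 to 3.94 (median 3.56, n = 7) in females. Its difference was −0.03 with a 95% interval of −0.44 to 0.38, and its sign changed with the processing. Tacr1, the receptor of substance P, was below the filter and without reads in 3 of 7 females and 3 of 5 males. Of 17 genes of peptide processing and dense core vesicles, all tested, 1 had an unadjusted p under 0.05 (Cadps2, 0.65 ± 0.31), and the median was −0.02. Such a p was found for 8.62% of all autosomal genes.

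**Figure D2:**
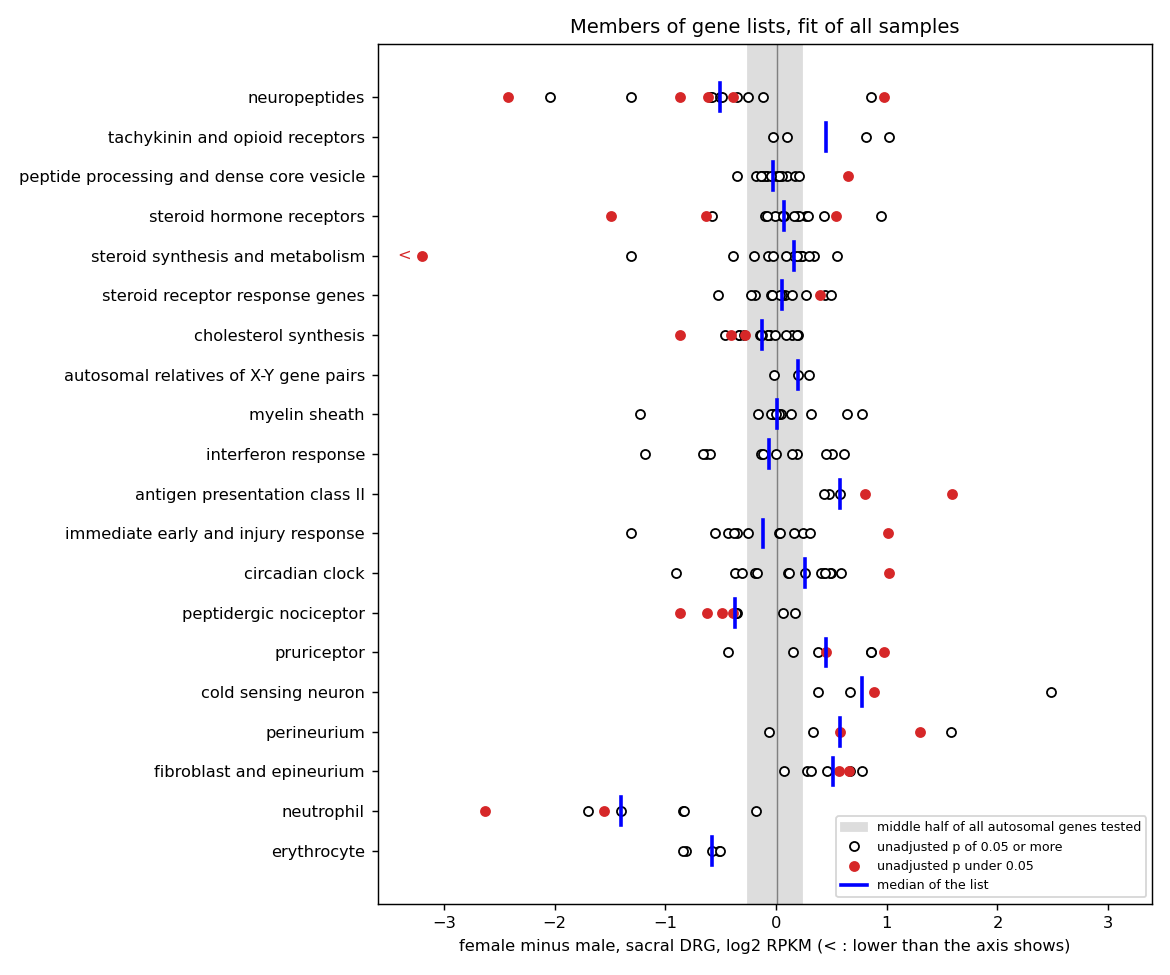
Difference between females and males (horizontal axis, log2 RPKM, sacral DRG, fit of all samples) of each tested autosomal member of 20 gene lists. Filled points have an unadjusted p under 0.05, vertical bars are list medians, and the grey band holds the central part of all autosomal genes tested; neuropeptides and peptidergic nociceptor markers lie mostly left of the band, and Srd5a2 lies beyond the axis at −7.01.

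Srd5a2 was also set beside the other genes of steroid synthesis, many of which fell below the filter. Srd5a2 itself passed the filter through the sacral males, where it was high. Of 30 autosomal genes of steroid synthesis and metabolism 15 were tested, Srd5a2 was the single gene called, and none of the others had an unadjusted p under 0.05 (median of the list 0.16). Srd5a1, which encodes the other classical steroid reductase, was 2.89, 1.22, 1.30, 1.51 and 1.83 in males and 1.31 to 2.78 (median 1.82, n = 7) in females. The groups overlapped over most of their range. Its difference was 0.16 with a 95% interval of −0.52 to 0.84, and its sign changed with the processing. A difference the size of that in Srd5a2 lies outside this interval. In lumbar DRG the difference of Srd5a1 was −0.72 (95% interval −1.38 to −0.07), and it was not called.

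None of the 17 tested genes of steroid hormone receptors and their cofactors was called, and their median was 0.07. Esr1, the oestrogen receptor alpha gene, was 1.64, 1.57, 2.03, 1.90 and 1.57 in males and 0.51 to 2.12 (median 1.02, n = 7) in females. Female replicate 23 (2.12) lay above all males, and every other female lay below the lowest male. The difference was −0.58 with a 95% interval of −1.33 to 0.18. An unadjusted p under 0.05 was found for the membrane progesterone receptor component Pgrmc2 (−0.64 ± 0.24), and for Paqr5 (0.54 ± 0.24) and Paqr6 (−1.49 ± 0.68), which encode membrane progestin receptors. At that p 4.17% of all autosomal genes were higher and 4.46% lower in females. In Pgrmc2 females (2.44 to 2.98) and males (3.05 to 3.70) did not overlap, as in 1.19% of all autosomal genes. Of 13 tested genes that respond to steroid receptors, 1 had an unadjusted p under 0.05, Klf9 (0.40 ± 0.17), and the median was 0.06. Such a p was found for 8.62% of all autosomal genes.

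Cholesterol is the precursor of all steroids. Of 19 tested genes of cholesterol synthesis, 15 had a fitted difference below 0, and the median was −0.13. For comparison, 51.3% of all autosomal genes had a fitted difference above 0. None was called, and 3 had an unadjusted p under 0.05, all lower in females, where 4.46% of all autosomal genes were lower at that p: Cyp51 (−0.41 ± 0.12), Sqle (−0.28 ± 0.11) and Mvk (−0.87 ± 0.37). Cyp51 was 4.02 to 4.31 in females and 4.40 to 4.75 in males, without overlap.

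Below the called genes, the protein coding genes with the lowest p whose sexes did not overlap in batch 2 (2.48% of all autosomal genes, 1.37% higher and 1.11% lower in females) were taken, 10 in each direction. Besides Slc4a11 and Hscb, the higher ones in females were Clvs1 (0.68 ± 0.15 SE), Cldn1 (1.30 ± 0.29), Slmo1 (1.45 ± 0.35), E030010A14Rik (3.15 ± 0.77), Rbm25 (0.77 ± 0.19), Asph (0.57 ± 0.14), Vegfa (0.61 ± 0.15) and Hipk2 (0.63 ± 0.16). Their limma adjusted p ran from 0.0753 to 0.186, so none passed. Cldn1 encodes claudin-1, a tight junction protein, Vegfa an angiogenic growth factor, Rbm25 a splicing factor, and Hipk2 a protein kinase. Clvs1 and Asph overlap on opposite strands, 31.8% of the 50-base words of Clvs1 occur in Asph transcripts, and reads of both cannot be told apart where they overlap. Their differences may therefore be read as 1 observation.

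Besides Srd5a2, Tac1, Penk and 4632415K11Rik, the lower ones in females were Fam162a (−1.32 ± 0.28 SE), Pmm1 (−0.89 ± 0.20), Pigyl (−4.87 ± 1.11), Efna1 (−1.29 ± 0.30), Sema4f (−0.89 ± 0.21) and Ankrd10 (−2.37 ± 0.58). Their limma adjusted p ran from 0.0665 to 0.148. Pmm1 encodes a phosphomannomutase, Pigyl a factor of glycolipid anchor synthesis, Efna1 a membrane-bound ephrin, and Sema4f a semaphorin. Fam162a was 3.62, 3.13, 3.34, 4.03 and 3.91 in males and 1.84 to 2.63 (median 2.29, n = 7) in females. Pigyl was without reads in 2 of 4 batch 2 females and reached 1.02 in batch 1 females, above the lowest male at 0.64. The size of its difference rests on the samples without reads, and on the log2(RPKM + 1) scale it was −2.17.

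**Figure D3:**
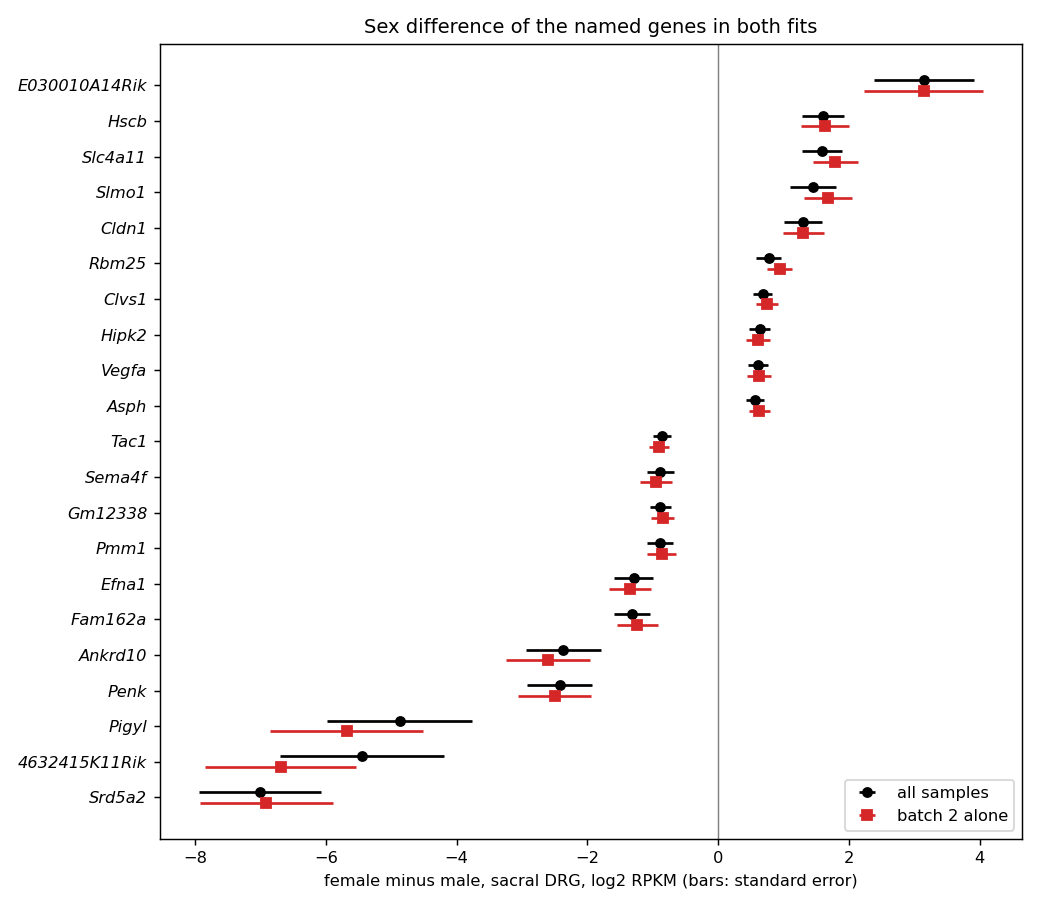
Difference between females and males (horizontal axis, log2 RPKM) with its standard error for the 21 genes that were called or ranked highest, in the fit of all samples (circles) and of batch 2 alone (squares). The largest shift between the fits is that of 4632415K11Rik, from −5.45 to −6.69. All genes but Gm12338 were chosen for sexes that do not overlap in batch 2, and both fits use those samples. That each gene has the same sign in both fits is therefore no separate result.

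Cell type markers were compared to see which cells the ganglia held. Of 8 peptidergic nociceptor markers, all tested, 6 had a difference below 0 (median −0.37), and 4 had an unadjusted p under 0.05, among them Calca, Tac1 and Trpv1 (−0.62 ± 0.25). Of all autosomal genes 4.46% were lower at that p, and 51.3% had a difference above 0. Calca and Tac1 are in this list and in the neuropeptide list, so the lists are not separate observations. The marker mean was 5.62 to 5.99 in males, 5.31 to 5.51 in batch 2 females and 5.42 to 5.63 in batch 1 females, where 1 female lay within the male range. Trpv1 encodes the capsaicin receptor, and it was 4.44 to 5.09 in males and 3.64 to 4.97 in females. Of 8 nonpeptidergic nociceptor markers 7 had a difference above 0, with a median of 0.16. Of 7 pruriceptor markers 6 did, with a median of 0.45. The pan neuronal mean was 5.87 to 6.13 in batch 2 females and 5.87 to 6.10 in males. Of its 12 genes Uchl1 (−0.44 ± 0.17) and Prph (−0.39 ± 0.14) were lower in females at an unadjusted p under 0.05 in the fit of all samples, and none was higher (1 in batch 2 alone).

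For the perineurium, the cell sheath around nerve fascicles, the mean of the 4 markers with reads in every sample was higher in every female than in every male, though no marker was called. It was 2.39 to 3.06 in males, 3.24 to 3.59 in batch 2 females and 3.14 to 3.90 in batch 1 females. Of the 5 tested markers 4 had a difference above 0 (median 0.57), among them Cldn1 and Itgb4 (0.57 ± 0.26), and Krt19 was below the filter. Cldn1 was 2.84, 2.78, 3.0, 2.44 and 3.03 in males and 3.70 to 4.82 (median 3.98, n = 7) in females. With the marker mean, which contains Cldn1, as a covariate, the difference of Cldn1 was 0.41. Of 8 fibroblast and epineurium markers all 8 had a difference above 0 (median 0.52), and Dcn (0.65 ± 0.17) and Lum (0.57 ± 0.26) had an unadjusted p under 0.05, against 51.3% and 4.17% of all autosomal genes above 0 and higher at that p. The marker mean overlapped between the sexes, at 2.70 to 3.67 in males and 2.57 to 4.81 in females, and the list median was 0.03 with the perineurium mean as a covariate. Cold sensing neuron markers had a mean of 0.42 to 0.86 in males and 0.88 to 1.91 over all females. In batch 2 the exact permutation p was 0.00794 for the perineurium and for the cold sensing mean, the smallest possible, and 0.0754 adjusted over 19 marker means, which does not pass. The fitted difference of Cdh8 was 0.89 ± 0.37, and the defining channel Trpm8 had no unadjusted p under 0.05. Of the 4 tested cold sensing markers 1 had such a p, against 3 in batch 2 alone (median 0.78 and 0.91).

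Blood cell markers lay lower in females, and those of erythrocytes more so in the fit of batch 2 alone. Of 7 tested neutrophil markers all 7 had a difference below 0 (median −1.40), with S100a9 at −1.56 ± 0.66 and Retnlg at −2.63 ± 1.27, where 4.46% of all autosomal genes were lower at an unadjusted p under 0.05. Their mean was 3.31 to 4.44 in males, 1.53 to 3.39 in batch 2 females and 2.84 to 3.90 in batch 1 females. All 5 tested erythrocyte markers had a difference below 0 (median −0.58), none with an unadjusted p under 0.05, against 4 of 5 in batch 2 alone (median −1.08), where 3.9% of all autosomal genes were lower at that p. With their own mean as a covariate the median was 0.05, but that mean is made of these markers, so a median near 0 was set in advance. They had a mean of 3.68 to 5.11 in males, 2.80 to 4.04 in batch 2 females and 4.64 to 4.88 in batch 1 females. No marker of these lists was called, and 51.3% of all autosomal genes had a difference above 0 (53.4% in batch 2 alone). With the neutrophil mean as a covariate the differences of Srd5a2, Tac1 and Penk were −7.55, −0.79 and −1.90, and with the erythrocyte mean −7.22, −0.78 and −2.22. Srd5a2 and Tac1 were called in both. Skeletal muscle was represented by 3 of 8 genes, with Acta1 and Ckm below the filter. Its Mylpf, a myosin light chain, was −1.23 to 1.97 in males and −6.22 to 3.22 in females, 3 of them without reads, and lower in all batch 2 females (−4.88 ± 1.97, unadjusted p = 0.0202). The part of these cells in the other results was not tested.

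**Figure D4:**
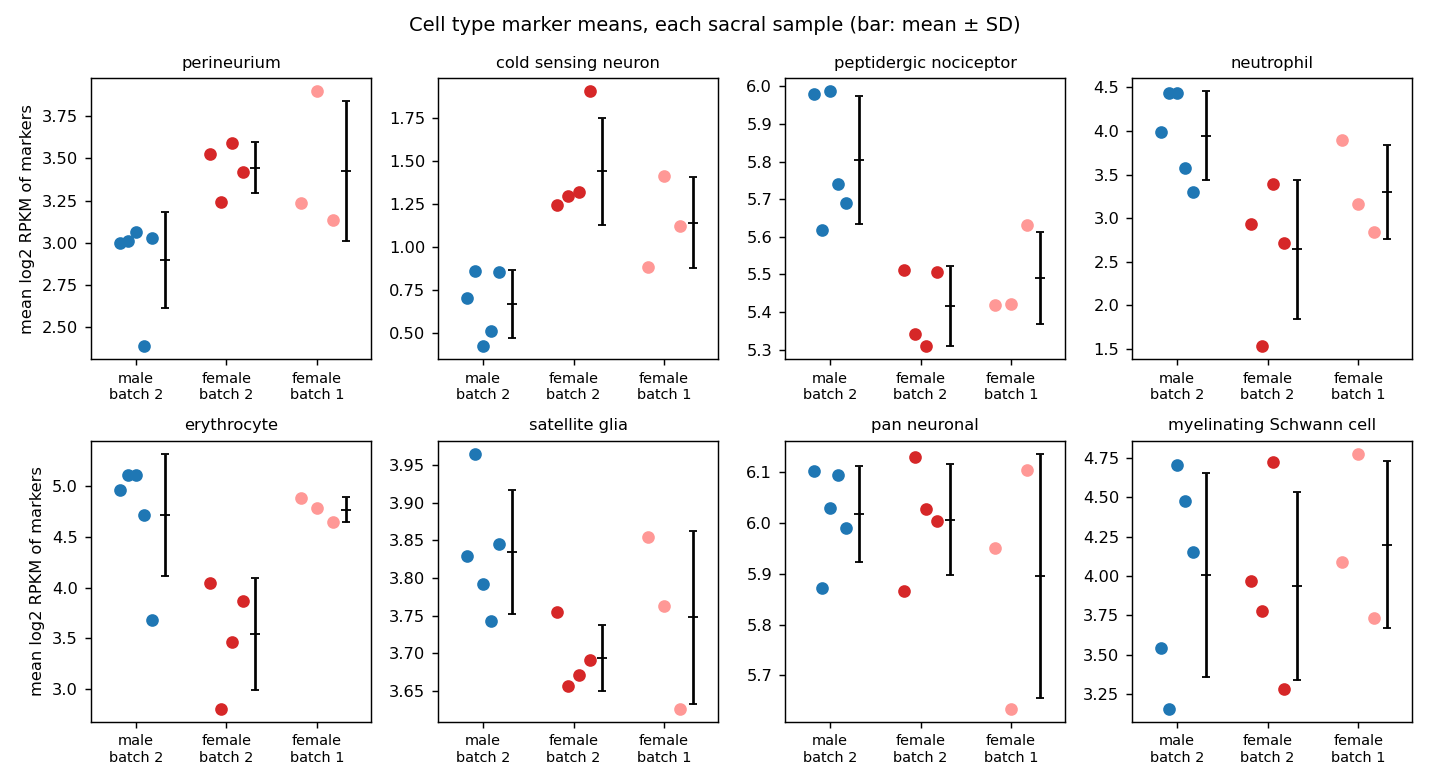
Mean log2 RPKM (vertical axis) of the markers of 8 cell types in each sacral sample, by sex and batch, with the mean and SD as bars. Perineurium and cold sensing neuron means are higher in every female than in every male, and the means of the other cell types overlap between the sexes.

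Genes of membrane signalling were taken from the sets that the study had curated. Of 45 tested G-protein coupled receptor genes, 7 had an unadjusted p under 0.05, all higher in females, where 4.17% of all autosomal genes were higher at that p. They were Gpr116 (0.81 ± 0.20), Ptgfr (0.78 ± 0.32), Lpar3 (0.76 ± 0.31), Htr1d (0.70 ± 0.28), Chrm2 (0.56 ± 0.27), Npy2r (0.56 ± 0.25) and Mrgpra3 (0.45 ± 0.21). Ptgfr is a prostaglandin receptor, Chrm2 a muscarinic receptor, Htr1d a serotonin receptor and Mrgpra3 an itch receptor. None was called, and the median of the set was 0.24. Over the alternatives 1 to 7 of the receptors were higher and 0 to 3 lower at that p.

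Of 51 tested potassium channel genes 7 were higher and 3 lower at an unadjusted p under 0.05 (median 0.08), against 4.17% and 4.46% of all autosomal genes. The counts in batch 2 alone were 8 higher and 1 lower. Kcns1, a modulatory subunit, was 2.01 to 2.47 in males and 0.26 to 1.73 in females (−1.23 ± 0.40), without overlap. Kcnh2 was 1.15 to 2.22 in males and 2.27 to 3.06 in females (0.78 ± 0.29), also without overlap. Of 39 ligand gated and cyclic nucleotide gated channel genes 2 were higher at that p, among them Hcn2 (1.25 ± 0.50), and none was lower. None of 10 tested sodium channel genes had an unadjusted p under 0.05. Of 47 transcription factor genes 7 were higher, with Ebf3 (0.57 ± 0.17) and Bnc2 (0.53 ± 0.15) at the lowest p, and Etv5 was lower (−0.46 ± 0.17). None of these genes was called.

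In the other groups none of the genes was called. The 14 tested myelin sheath genes had a median of 0.01 and the 12 interferon response genes −0.06, and none of either had an unadjusted p under 0.05. All 5 tested class II antigen presentation genes had a difference above 0 (median 0.58), with H2-Eb1 (0.80 ± 0.28) and H2-DMa (1.59 ± 0.66) at an unadjusted p under 0.05 (limma adjusted p = 0.391 and 0.474). Of all autosomal genes 51.3% had a difference above 0, and 4.17% were higher at that p. Egr1, an immediate early gene, was 2.03 to 3.12 in females and 0.31 to 1.93 in males, without overlap (1.19% of all autosomal genes), and the difference of 1.01 ± 0.33 did not pass (limma adjusted p = 0.361). It was the single such gene of 12 tested at that p. Of 15 clock genes 1 had an unadjusted p under 0.05, Nr1d1 (1.02 ± 0.35). The 3 tested autosomal relatives of X-Y gene pairs had a median of 0.20 and none had such a p.

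The lumbar DRG, mostly from the same mice, were used to ask whether the sacral differences held there. In lumbar DRG 1 autosomal gene was called, Srd5a2 (0.00828%), and 7.25% had an unadjusted p under 0.05. Srd5a2 was −1.34, −0.07, 0.71, 1.5 and −0.97 in lumbar males, far under the sacral males, and was without reads in 6 of 7 lumbar females. The lumbar difference was −5.94 ± 0.90 (SE; limma adjusted p = 0.00164), and its size depends on the value given to samples without reads. Tac1 was 6.77 to 7.58 in lumbar males and 6.74 to 7.14 in lumbar females, which overlap, with a difference of −0.27 (95% interval −0.54 to −0.01). Slc4a11 differed by 0.15 ± 0.30 and Hscb by −0.05 ± 0.31 in lumbar DRG, and Cldn1 by 1.07 ± 0.28.

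The interaction, which tests whether the sacral difference differs from the lumbar, called 0 autosomal genes (limma). Unadjusted, 543 had a p under 0.05 (4.5%). The interaction was −0.59 ± 0.18 for Tac1, 1.44 ± 0.41 for Slc4a11, 1.66 ± 0.43 for Hscb and −1.57 ± 0.66 for Penk, each with an adjusted p of at least 0.973. For Srd5a2 it was −1.07 ± 1.24. On the log2(RPKM + 1) scale, where low values weigh less, the interaction called 1 gene, Srd5a2. None of these genes was shown to differ between the levels in the log2 RPKM fit.

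**Figure D5:**
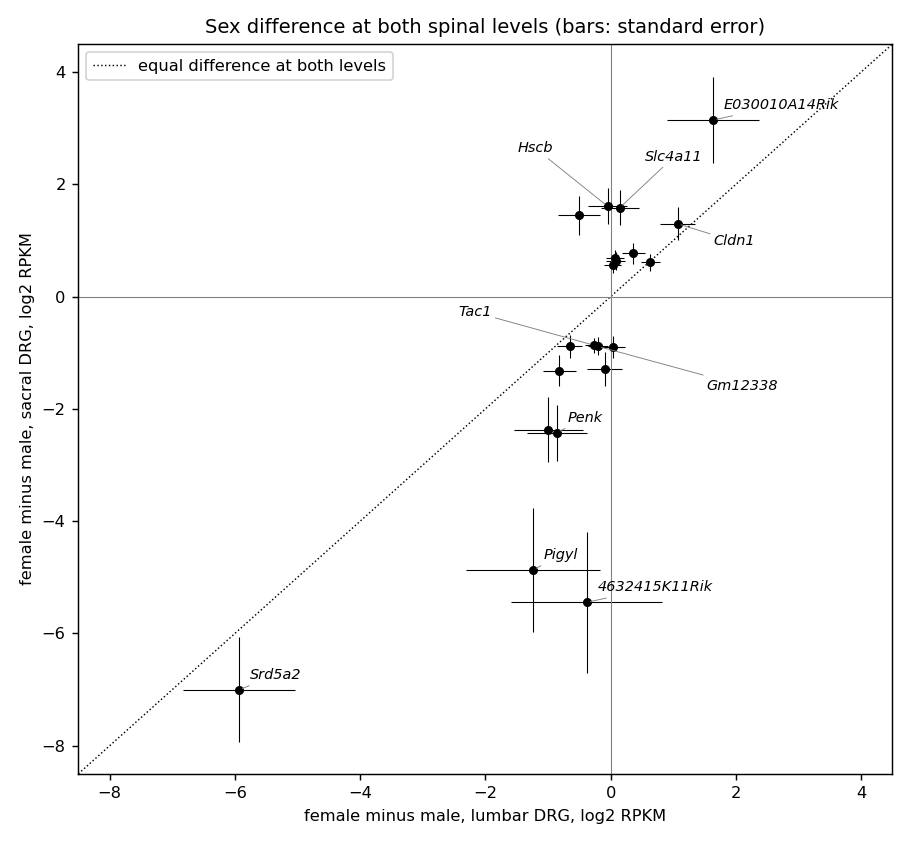
Difference between females and males in sacral DRG (vertical axis) against that in lumbar DRG (horizontal axis), both in log2 RPKM with standard errors, for the 21 genes of the previous comparison of fits. Genes on the dotted line would differ equally at both levels. Srd5a2 and Cldn1 lie near it, and Slc4a11 and Hscb lie near 0 in lumbar DRG. The lumbar place of Srd5a2 depends on the value given to samples without reads.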

How the data were processed

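RNA from DRG was amplified (NuGEN Ovation), made into Nextera XT libraries and sequenced on a HiSeq2500. The authors aligned reads to mm9 with Subread, kept unique reads, counted them per Ensembl gene with featureCounts, and computed log2 RPKM with voom and TMM. They then subtracted the batch difference with removeBatchEffect. The deposited table holds these log2 values, and use of strand is not stated. Sex cannot be compared within batch 1, which holds females only. Read depth was recovered from the step of a single read in low values.

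Blank cells were set to 0.5 reads. The batch difference that the authors subtracted from each gene did not enter this fill or the read numbers, so both are approximate. Genes with a mean log2 RPKM of at least 0 in 1 of 4 groups were tested with limma 3.58.1 (R 4.3.3, statmod 1.5.0): group means, batch, mouse as a random block (duplicateCorrelation), eBayes with trend, and Benjamini-Hochberg adjustment over all 12655 genes tested. The fit was tested on simulated data. Single values used exact permutation within batch 2. Symbols and coordinates are from GENCODE M1 (mm9). Named genes were those called in either fit, the 10 highest-ranked protein coding genes in each direction without overlap in batch 2, and list members with an unadjusted p under 0.05, plus 8 genes chosen by name. The members and gene lists were chosen with earlier results of these data known. Each sample is from 1 mouse, and most mice gave both a lumbar and a sacral sample. Alternatives were another scale, filter, fill, scaling, sample set, block, weights and covariates, and single samples left out. Some list members are not reported here by name.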

Additional observations from a re-analysis of the deposited data

Results flagged for a closer look

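In 96 sets of values (named genes, marker means and library measures) of sacral females or males, a sample that stands apart from its group was looked for by Dixon's test at the 95% level, which marks about 5% of sets by chance, and 5 were marked. Vegfa in sacral females was 3.85 in a batch 2 sample and 3.36 to 3.55 in the other 6. Rbm25 in sacral males was 2.90 in replicate 12 and 3.50 to 3.68 in the other 4. Tacr1 in sacral males was −4.64 in replicate 15, and the others, 3 of them without reads, were at −9.07 to −8.26. The erythrocyte marker mean in sacral males was 3.68 in replicate 15 and 4.72 to 5.11 in the others. The perineurium marker mean in sacral males was 2.39 in replicate 14 and 3.0 to 3.06 in the others, all below the lowest female at 3.14.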

How the results depend on the processing

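The count of 5 autosomal genes in all samples was 5 with no replicate block for mouse, and the estimated mouse correlation was −0.017. The count was 9 on the log2(RPKM + 1) scale, 2 with no filter, 23 with batch left out of the model, 9 with the 12 sacral samples alone, and 2 with adjustment over the autosomal genes alone. Among alternatives chosen after seeing the data it was 2 for genes with a value in all samples, and 3, 2 and 1 with the neutrophil, erythrocyte and perineurium means as covariates; the cause was not tested. Without single samples it ran from 2 to 8: 2 without female replicate 23, 3 without male replicates 12 or 15 or batch 1 female replicates 11 or 12, and 8 without male replicate 14. The count of 4 in batch 2 alone was 3 with no replicate block, 1 for genes with a value in all samples (added after seeing the data), and 2 to 6 without single samples (2 without male replicate 11, 12, 13, 14 or 15 or female replicate 21, 6 without female replicate 22). With the 9 sacral samples alone, which leaves fewer samples for the spread, limma called 0, with 918 at an unadjusted p under 0.05. The interaction count of 0 became 1 on the log2(RPKM + 1) scale.

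In the fit of all samples Srd5a2 was called under 29 of 30 alternatives and Tac1 under 30 of 31, the exception being the perineurium covariate. In batch 2 alone both were lost with the 9 sacral samples alone, and Tac1 was called in 4 of 9 fits without single samples. Gm12338 was called under 21, Slc4a11 under 14 and Hscb under 8 of 31. Signs reversed for Srd5a1 and Oprm1 among the named genes. Srd5a1 was −0.016 with sample quality weights, −0.0027 with the mitochondrial share, −0.20, −0.016 and −0.12 with the neutrophil, erythrocyte and perineurium means, and −0.059 to 0.44 without single samples (below 0 without female replicate 21). Oprm1 was 0.022 with the neuronal mean, 0.27 with the perineurium mean, and −0.15 to 0.070 without single samples (0.0067 without batch 1 female replicate 12). The median of all autosomal differences ran from −0.04 to 0.06.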

Other observations

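The genes with an unadjusted p under 0.05 were spread over the autosomes, from 6.67% of the tested genes on chromosome 14 to 11.4% on chromosome 12, and the median difference of a chromosome ran from −0.04 (chromosome 7) to 0.03 (chromosome 3). Over the genes with a mean of up to 0.83 log2 RPKM the median standard error was 0.58, and over those from 3.31 it was 0.17. A difference of more than 1 log2 unit was fitted for 808 autosomal genes (311 higher and 497 lower in females), of which 366 had an unadjusted p under 0.05.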
